A study of Mus musculus with 9 samples.

Results

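The genes described here are the 37 genes, of 53801 in the count table, that code for Sm proteins, LSm proteins, other protein subunits of the spliceosomal small nuclear ribonucleoprotein particles (snRNPs) and the SMN complex. They were chosen by name from textbook membership and not by their values, though earlier results of these data were known. All 37 passed the filter on low counts that left 22452 genes for testing. By role they fall into 8 Sm ring genes, 5 genes of the U1 and U2 snRNPs, 3 of the U5 snRNP and the tri-snRNP, 3 of the U11/U12 snRNP of the minor spliceosome, 10 LSm genes and 8 genes of the SMN complex. The libraries, 9 in all, hold messenger RNA of spermatogonial stem cells (SSCs), the cells that sustain sperm production, grown in culture from mice. The cells came from Prmt5 flox/flox; Rosa26-CreERT2 mice and were given 4-hydroxytamoxifen (4OHT) at 1 µM, which by the study's design activates Cre and deletes Prmt5. Of the 9 libraries, 3 are labelled 4OHT, 3 MU and 3 OE. MU was read as the catalytically dead PRMT5 (E444Q) and OE as PRMT5 (WT), each delivered to 4OHT-treated cells, and every comparison rests on this reading because the labels do not spell it out. All groups therefore share the 4OHT treatment. No library without 4OHT was analysed here, so the extent of the deletion was not measured. Rosa26-CreERT2 is expressed in most cell types of the donor mice and is not specific to germ cells, the study grew SSCs on mouse embryonic fibroblast feeder cells, and the sources used here do not state whether the 3 libraries of a group are separate cultures, so p-values measure only the spread between these libraries.

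PRMT5 is an arginine methyltransferase that, with its partner WDR77 and the chaperone pICln (gene Clns1a), places symmetric methyl groups on arginines in the arginine-glycine (RG) rich tails of the Sm proteins B, D1 and D3 and of LSM4. The SMN complex binds these proteins and loads them as a ring on each small nuclear RNA. The finished snRNPs then remove introns in the nucleus, while the LSm proteins form related rings on U6 RNA, on U7 RNA or, in the cytoplasm, on messenger RNAs that are to be decapped. The methylation itself is a change of the protein, and the values below are levels of messenger RNA.

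RG pairs can be counted in the coding sequences of the members, though a count alone does not show that PRMT5 acts on them. Counting pairs of an arginine codon followed by a glycine codon in the longest coding transcript of each gene, Snrpd1 had 10 pairs, Snrpb, Lsm4 and Snrnp70 had 8 each, Snrpd3, Snrpn and Gemin5 had 7 each and Lsm11 had 6. Snrpd2, Snrpe and Snrpf had 1 pair each and Snrpg had 2. Over 21451 protein-coding genes of the same annotation the median was 1 pair, and 9.8% of them had 5 or more, so the pairs were frequent in the ring subunits B, N, D1 and D3 and not in D2, E, F and G. In Snrpd1, 9 of the 10 pairs lay within 40 codons, and in Lsm4 7 of the 8. The most within 40 codons was 5 in Snrpd3, 4 in Snrnp70, 3 in Snrpb and Snrpn and 2 in Gemin5 and Lsm11. The densest stretch of Snrpd3 is shown because it is the part of a member that PRMT5 modifies, 5′ to 3′ in frame with the RG codon pairs in capitals, from the plus strand of GRCm38 and joined from 2 exons. It covers codons 97 to 119 with 5 pairs within chr10:75532339-75535298.
Snrpd3: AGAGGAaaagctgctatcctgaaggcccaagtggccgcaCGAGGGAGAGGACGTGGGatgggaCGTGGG

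Levels are given as CPM, the counts of a gene relative to the TMM-adjusted total of its library, and a fold change is the difference of fitted log2 levels, with its standard error (SE). A gene was called where the edgeR quasi-likelihood test gave a Benjamini-Hochberg adjusted p under 0.05 over all 22452 genes. The libraries held between 78751996 and 365719548 counts. Prmt5 itself was at 31.9, 30.8 and 28.2 CPM in the 4OHT libraries, 145, 147 and 146 CPM in the MU libraries and 1070, 1070 and 1080 CPM in the OE libraries. MU was at 0.136 times OE in Prmt5 RNA (log2 fold change MU minus OE -2.88, SE 0.05, edgeR adjusted p = 1.09e-12). Both construct groups were above 4OHT, but these levels cannot show which of them carries E444Q. By western blot, the paper reports that PRMT5 levels were restored by either construct. The groups also differed in the makeup of the RNA. The summed level of 10 germ cell markers, led by Dazl, Ddx4 and Tdrd1, was 1798 to 1838 CPM with 4OHT, 2843 to 2929 with MU and 3095 to 3122 with OE. Of these 10 markers 8 were called higher in each comparison with 4OHT and 2 lower, Zbtb16 (-0.67 and -0.54) and Nanos3 (-0.33 and -0.57). For 10 feeder fibroblast markers, led by Fn1, Col1a2 and Col1a1, it was 9417 to 11490, 5170 to 5261 and 4073 to 4153 CPM. Macrophage markers, 10 genes led by Lyz2, Mpeg1 and Laptm5, summed to 172.8 to 188.1, 1137 to 1169 and 2208 to 2332 CPM, and 6 proliferation genes led by Top2a, Mcm2 and Ccnb1 to 897.1 to 986.7, 1281 to 1296 and 1396 to 1397 CPM. In bulk RNA, fewer cells of a type and less RNA per cell cannot be told apart, and the part of these markers in the members' differences was not tested.

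One library stood apart, and it moved with transcript length and with these genes. The members' longest coding transcripts had a median of 1222 nucleotides (nt), and 22 of 37 were under 1500 nt. In the third 4OHT library, the 1159 genes up to 1000 nt with a mean of at least 1 CPM lay at a median of -0.22 (log2) from the mean of their group, against 0.15 and 0.08 in the other 4OHT libraries, and the 3080 genes of the next length class, up to 2000 nt, lay at -0.03. The 10 members up to 1000 nt had a median of -0.32 there, the 17 members up to 2000 nt one of -0.16 and the 10 longer members one of -0.06, so members of the middle class lay lower than other genes of their length, and the part of length in this was not tested. Of the 37 members, 28 had their lowest 4OHT value in that library, with a median of -0.17 from the mean of the group and a Spearman correlation with transcript length of 0.60 across the 37 genes, which share the library. The members' coefficient of variation between libraries had a median of 11.9% with 4OHT, 3.51% with MU and 4.17% with OE. The counts over the members are therefore given with and without this library, and the values without it are given for each member whose call or sign changed or whose called difference moved by 1.5 times or more.

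**Figure D1:**
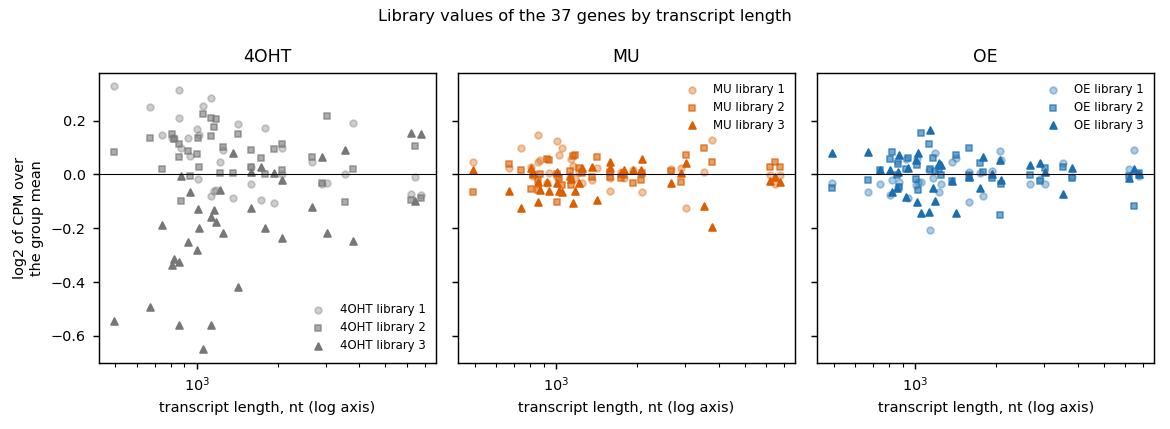
Each point is 1 of the 37 genes in 1 library, with the length of its longest coding transcript in nt on a log axis and the log2 of its CPM over the mean of its group on the vertical axis, in 1 panel per group. In the 4OHT panel the triangles of library 3 fall below 0 for most genes and lowest for the short ones, while MU and OE libraries scatter about 0.

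Compared with 4OHT alone, most members were higher with either construct. The paper delivered the constructs by lentivirus, and the sources used here name no empty-vector group. In both comparisons with 4OHT, the construct and its delivery therefore cannot be told apart. MU was called higher for 27 members and lower for 2, against a background of 29.5% of all genes called higher and 26.5% lower in the same comparison. OE was called higher for 25 and lower for 2, against 29.9% and 27.9% of all genes. By mean CPM the least abundant member, Gemin6, lay at percentile 50.4 of all genes tested, so these shares include many genes with fewer counts. A background of like abundance was not used. The median log2 fold change of the members was 0.31 in MU and 0.32 in OE, where the median over all genes tested was 0.04 and 0.02. In 26 members all MU libraries were above all 4OHT libraries and in 2 all were below, where 33.8% and 30.1% of all genes did so. For OE against 4OHT these counts were 25 and 2, where 31.5% and 30.1% of all genes did so. The comparisons share the 4OHT libraries, so they are not independent, and 24 members were called higher and 2 lower in both of them.

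Without the third 4OHT library the counts were 25 higher and 2 lower for MU, with a median of 0.23, and 25 higher and 3 lower for OE, with a median of 0.26. With the dependence on transcript length removed from all libraries, they were 27 and 2 with a median of 0.29 for MU, and 27 and 2 with a median of 0.35 for OE. The changes were small, and when a change of at least 1.5-fold was also required of a call, 4 members were higher and 0 lower in each comparison. Under that requirement, 3710 of all 22452 genes were called higher and 3672 lower in MU against 4OHT, which is 32.9% called. In OE against 4OHT they were 3803 and 4115, which is 35.3%. At this threshold the members were called less often than all genes.

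**Figure D2:**
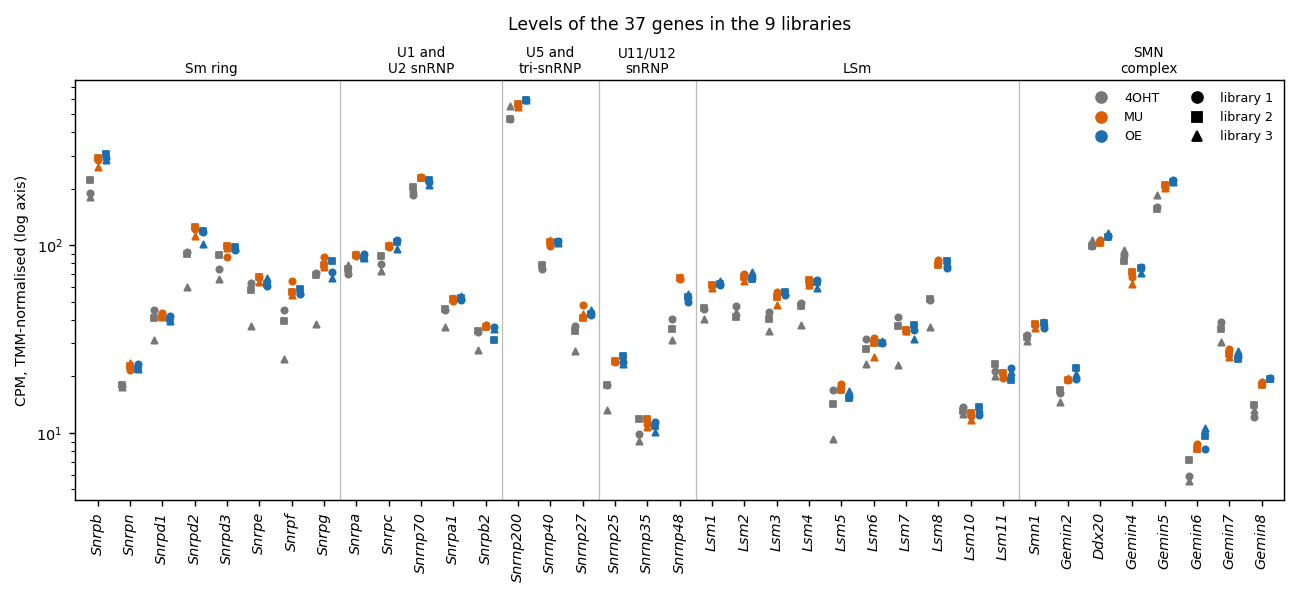
Each point is the CPM of 1 gene in 1 library, on a log axis, for the 37 genes in 6 role groups, with grey for 4OHT, orange for MU and blue for OE and a symbol for each library of a group. MU and OE lie side by side above 4OHT for most genes, Gemin4 and Gemin7 lie below it, and the grey triangles of the third 4OHT library sit lowest for many short genes.

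The Sm ring genes code for the subunits B, D1, D2, D3, E, F and G and for SmN, a close relative of SmB. Of the 8, 7 were called higher in MU against 4OHT and 5 in OE against 4OHT. Snrpb, which codes for SmB, was at 189, 223 and 180 CPM with 4OHT, 285, 293 and 260 with MU and 291, 307 and 284 with OE, so neither group overlapped 4OHT (log2 fold change 0.50, SE 0.07, edgeR adjusted p = 4.99e-05 for MU, and 0.57, SE 0.07, adjusted p = 1.31e-05 for OE). Per kilobase of transcript, averaged over all libraries, Snrpb was the most abundant ring gene at 221 CPM per kb, followed by Snrpe at 90.6, Snrpd2 at 73.4, Snrpg at 67.6, Snrpf at 58.7, Snrpd1 at 47.3, Snrpd3 at 29.3 and Snrpn at 10.1. Snrpn, which codes for SmN and whose coding sequence is 80.5% identical to that of Snrpb, was at 17.8, 18.0 and 17.6 CPM with 4OHT, 21.6, 22.7 and 23.5 with MU and 23.2, 21.8 and 22.0 with OE. It was higher in every MU and OE library than in any 4OHT library (0.34, SE 0.06, and 0.33, SE 0.06), and it shares 589 exon bases with Gm38393 on the same strand, whose level was 2.8, 5.54 and 6.25 CPM with 4OHT, MU and OE.

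The subunits D1 and D3, whose tails carry RG repeats, differed in their calls. Snrpd1 was at 45.2, 40.8 and 31.1 CPM with 4OHT, 43.5, 41.5 and 41.3 with MU and 42.2, 40.6 and 39.4 with OE. The groups overlapped, it was the ring gene not called in either comparison (0.11, SE 0.10, 95% interval -0.11 to 0.33 for MU, and 0.06, SE 0.10, interval -0.16 to 0.28 for OE), and its sign turned without the third 4OHT library (-0.04 and -0.09). Snrpd3 was at 75.0, 89.2 and 65.9 CPM with 4OHT, 86.3, 98.7 and 96.8 with MU and 93.7, 97.6 and 96.4 with OE. OE lay above every 4OHT library, MU overlapped the second of them, and both differences were called (0.29, SE 0.09, and 0.32, SE 0.09), the MU call being lost without the second or the third MU library (edgeR adjusted p = 0.0652 and 0.0551). Without the third 4OHT library the differences of Snrpd3 were 0.19 and 0.21, both called. Snrpd3 shares 232 exon bases with Gucd1 on the opposite strand, at 27.0, 28.7 and 30.3 CPM with 4OHT, MU and OE. Whether counting used the strand is not stated, so its value is less certain. The difference between Snrpd1 and Snrpd3 was not itself tested.

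The subunits D2, E, F and G have few RG pairs. Snrpd2 was at 91.6, 89.3 and 60.2 CPM with 4OHT, 122, 125 and 112 with MU and 118, 119 and 102 with OE, without overlap with 4OHT (0.57, SE 0.12, and 0.49, SE 0.12, and 0.40 and 0.31 without the third 4OHT library, both called). Snrpf had the largest change of the ring, at 45.3, 39.4 and 24.7 CPM with 4OHT, 64.6, 56.0 and 54.4 with MU and 55.0, 58.2 and 57.1 with OE (0.68, SE 0.15, edgeR adjusted p = 0.00181, and 0.64, SE 0.16, adjusted p = 0.00275). Both groups were clear of 4OHT for Snrpf, and without the third 4OHT library its differences were 0.46 and 0.41, still called. Snrpf shares 567 exon bases with Ccdc38 on the opposite strand, at 0.504, 2.26 and 1.92 CPM with 4OHT, MU and OE. Snrpe was at 62.6, 57.8 and 37.3 CPM with 4OHT, 67.4, 68.0 and 63.5 with MU and 60.3, 62.1 and 66.7 with OE. MU lay just above the highest 4OHT library and was called (0.34, SE 0.13, adjusted p = 0.0474), OE overlapped it and was not (0.26, SE 0.13, adjusted p = 0.112), and without the third 4OHT library the MU call was lost (0.13, adjusted p = 0.0713). Snrpg was at 71.0, 69.6 and 37.9 CPM with 4OHT, 86.2, 78.4 and 77.0 with MU and 72.4, 82.2 and 66.9 with OE. All MU libraries were above 4OHT (0.44, SE 0.17, adjusted p = 0.0429), OE overlapped 4OHT (0.31, SE 0.17, adjusted p = 0.14), and without the third 4OHT library the differences were 0.19 and 0.06, of which MU was called. The MU calls of Snrpe and Snrpg lay near the threshold and were lost without any 1 of the MU or OE libraries (edgeR adjusted p from 0.0693 to 0.13 for Snrpe and from 0.0552 to 0.118 for Snrpg) and with DESeq2 (adjusted p = 0.135 and 0.12). Near-identical copies of Snrpf, Snrpg and Snrpe elsewhere in the genome, counted under their own identifiers, had summed levels equal to 13%, 8.38% and 7.39% of the level of the gene itself, so that reads could have been split between them.

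Of the 5 genes of the U1 and U2 snRNPs, which recognise the start of an intron and its branch site, 4 were called higher in each comparison with 4OHT. Snrnp70, the U1-70K protein, was at 184, 205 and 200 CPM with 4OHT, 231, 227 and 230 with MU and 217, 223 and 209 with OE, above 4OHT in all libraries (0.23, SE 0.05, and 0.14, SE 0.05). The OE call of Snrnp70 was lost without the first 4OHT library (0.08, edgeR adjusted p = 0.152) and without MU library 2 or 3 or OE library 2 (adjusted p from 0.0712 to 0.0764). Snrpc, which codes for the U1 C protein and changed most in this group, was at 79.1, 87.8 and 73.1 CPM with 4OHT, 98.4, 99.0 and 99.8 with MU and 106, 104 and 95 with OE, again without overlap (0.31, SE 0.07, and 0.35, SE 0.07). Mean levels with 4OHT, MU and OE were 74.4, 88.7 and 87.2 CPM for Snrpa, the U1 A protein, and 42.6, 51.5 and 52.5 CPM for Snrpa1, the U2 A′ protein, both called higher in both. For Snrpa1 the differences were 0.27 and 0.30, and 0.17 and 0.19 without the third 4OHT library, all called. Snrpa shares 327 exon bases with BC024978 on the opposite strand, at 18.7, 14.7 and 12.2 CPM with 4OHT, MU and OE. Snrpb2, the U2 B″ protein, was at 34.6, 35 and 27.5 CPM with 4OHT, 37.4, 36.8 and 37.8 with MU and 36.7, 31.1 and 35.8 with OE. MU lay above 4OHT, OE overlapped it, and neither was called (0.21, SE 0.09, edgeR adjusted p = 0.0638, and 0.10, SE 0.09, adjusted p = 0.388), with 0.10 and -0.02 without the third 4OHT library.

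All 3 genes of the U5 snRNP and tri-snRNP were called higher in both comparisons. Snrnp200, the helicase that unwinds U4 from U6, was the member with the most counts, at 472, 468 and 553 CPM with 4OHT, 551, 562 and 542 with MU and 593, 597 and 596 with OE. Here the third 4OHT library was the high one and overlapped MU, while OE lay above all others (0.15, SE 0.06, adjusted p = 0.0438, and 0.26, SE 0.06, adjusted p = 0.00175, by edgeR). Its transcript is also the longest of the members at 6745 nt, and without that library the differences were 0.23 and 0.33, both called. The MU call of Snrnp200 was lost without either other 4OHT library, any MU library or OE library 3 (edgeR adjusted p from 0.0889 to 0.192) and with DESeq2 (adjusted p = 0.0626). Snrnp40, a U5 subunit, was at 75.0, 78.3 and 77.3 CPM with 4OHT, 98.6, 104 and 106 with MU and 105, 104 and 103 with OE. The 4OHT libraries agreed closely for this gene and lay well below all others (0.42, SE 0.05, edgeR adjusted p = 2.82e-06, and 0.44, SE 0.05, adjusted p = 1.87e-06). Snrnp27, a tri-snRNP subunit, had means of 33.2, 43.9 and 43.6 CPM with 4OHT, MU and OE (0.40, SE 0.10, and 0.40, SE 0.10, and 0.28 and 0.26 without the third 4OHT library, all called).

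In the U11/U12 snRNP, which recognises the rare minor class of introns, 2 of 3 genes were called higher in both comparisons. Snrnp48, its 48K protein that contacts the start of the intron, was at 40.5, 35.9 and 31.3 CPM with 4OHT, 66.3, 66.8 and 67.7 with MU and 49.8, 52.9 and 55.0 with OE. The 3 groups were fully separated, in the order 4OHT, OE, MU, and the differences from 4OHT were 0.90 (SE 0.08, edgeR adjusted p = 2.83e-07) for MU, the largest of any member, and 0.55 (SE 0.08, adjusted p = 3.37e-05) for OE. Snrnp25 was at 18.0, 18.0 and 13.2 CPM with 4OHT, 24.0, 24.1 and 24.2 with MU and 24.0, 25.8 and 23.2 with OE, with the 2 constructs at one level above 4OHT (0.56, SE 0.10, and 0.57, SE 0.10). Snrnp35 had means of 10.2, 11.2 and 10.8 CPM and was not called (0.14 and 0.08, and 0.05 and -0.02 without the third 4OHT library). Of 5 other U11/U12 protein genes, 5 were called higher in MU against 4OHT and 4 in OE against 4OHT, including Pdcd7 (0.51 and 0.71) and Zmat5 (0.74 and 0.70).

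The LSm genes did not move as one. The genes Lsm1 to Lsm8 code for the rings on U6 RNA and on messenger RNA, and Lsm10 and Lsm11 for the parts that replace SmD1 and SmD2 in the ring on U7 RNA, which processes histone messenger RNAs. MU was called higher for 6 of the 10 and OE for 5. Lsm8, the subunit found in the nuclear U6 ring and not in the cytoplasmic ring, was at 51.0, 51.6 and 36.8 CPM with 4OHT, 83.1, 78.6 and 83.0 with MU and 75.2, 82.4 and 80.2 with OE. Both constructs were far above 4OHT (0.81, SE 0.10, edgeR adjusted p = 8.37e-06, and 0.77, SE 0.10, adjusted p = 1.35e-05), and without the third 4OHT library the differences were 0.66 and 0.62. Its counterpart Lsm1, found in the cytoplasmic ring, had means of 44.0, 60.6 and 62.6 CPM and was called higher in both (0.46, SE 0.06, and 0.51, SE 0.06).

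Lsm2 was at 47.4, 41.4 and 44.1 CPM with 4OHT, 70.0, 67.6 and 64.8 with MU and 66.8, 66.0 and 71.7 with OE, so all 6 construct libraries lay above 4OHT (0.61, SE 0.06, and 0.62, SE 0.06). Means for 4OHT, MU and OE were 40, 52.6 and 55.5 CPM for Lsm3 and 44.6, 62.4 and 63.0 CPM for Lsm4, the LSm protein with the RG-rich tail. Both were called higher with either construct, Lsm4 by 0.48 (SE 0.08) and 0.50 (SE 0.08). Lsm5 was at 16.9, 14.3 and 9.24 CPM with 4OHT, 18.3, 17.0 and 17.9 with MU and 15.6, 15.4 and 16.8 with OE. Its call in MU (0.40, SE 0.15, adjusted p = 0.0427 by edgeR) was lost without the third 4OHT library (0.18, adjusted p = 0.115), without the second (0.45, adjusted p = 0.0692) and without any MU or OE library (adjusted p from 0.0609 to 0.107), it was not called in OE (0.24, SE 0.16), and its near-identical copies, counted separately, summed to 4.24 CPM beside 15.7 CPM for Lsm5, a ratio of 27.0%. Lsm6, at means of 27.7, 29.1 and 30.3 CPM, and Lsm7, at 33.8, 35.1 and 34.9 CPM, were not called. The difference of Lsm6 in MU was 0.07, and -0.04 without the third 4OHT library. Near-identical copies of Lsm7 had summed levels of 7.7 CPM beside 34.6 CPM for the gene itself, a ratio of 22.3%. Without the third 4OHT library Lsm7 was lower in OE than in 4OHT and called (-0.18, edgeR adjusted p = 0.0457), where the difference was 0.05 with all libraries. In MU the difference of Lsm7 turned from 0.06 to -0.165 and was not called.

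Neither U7 subunit was called. Lsm10 had means of 13.2, 12.2 and 13.1 CPM with 4OHT, MU and OE (-0.11, SE 0.08, 95% interval -0.28 to 0.06, and -0.01, SE 0.08, interval -0.18 to 0.17). Lsm11 had means of 21.7, 20.2 and 20.8 CPM (-0.10, SE 0.08, interval -0.27 to 0.06, and -0.06, SE 0.08, interval -0.23 to 0.10). These intervals end below the differences of Lsm2 and Lsm8. Of 6 partners of the U7 snRNP in histone messenger RNA processing, 4 were called higher and 2 lower in each comparison, including Casp8ap2 (0.89 and 0.92) and Zfp473 (0.58 and 0.70), both higher.

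The 2 members called lower in both comparisons with 4OHT belong to the SMN complex. Of its 8 genes, 5 were called higher and 2 lower in MU against 4OHT, where 29.5% and 26.5% of all genes were. In OE against 4OHT, 6 were called higher and 2 lower, where 29.9% and 27.9% of all genes were. For 8 genes, 2 called lower is near the share over all genes. Smn1, the survival motor neuron protein itself, had means of 32.3, 37.3 and 37.8 CPM with 4OHT, MU and OE (0.21, SE 0.06, edgeR adjusted p = 0.00584, and 0.23, SE 0.06, adjusted p = 0.00323). Gemin2, its tightest partner, had means of 16.0, 19.3 and 20.8 CPM and was called higher in both. Gemin5, the subunit that recognises small nuclear RNAs, was at 159, 156 and 186 CPM with 4OHT, 205, 209 and 202 with MU and 222, 217 and 217 with OE. MU and OE both lay above 4OHT (0.30, SE 0.06, and 0.39, SE 0.06).

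Ddx20, the helicase Gemin3, was at 98.9, 99.2 and 106 CPM with 4OHT, 107, 103 and 106 with MU and 112, 111 and 116 with OE. OE lay above the other groups and was called against 4OHT (0.15, SE 0.05, edgeR adjusted p = 0.012; 0.12, adjusted p = 0.0928 without the third OE library), while MU was near 4OHT and was not (0.05, SE 0.05, adjusted p = 0.374). Gemin6 was the least abundant by counts, at 5.88, 7.20 and 5.58 CPM with 4OHT, 8.75, 8.19 and 8.31 with MU and 8.20, 9.60 and 10.6 with OE, with no overlap with 4OHT (0.44, SE 0.12, and 0.61, SE 0.12). Gemin8 was at 12.2, 14.1 and 13.2 CPM with 4OHT, 18.6, 18.0 and 18.6 with MU and 19.6, 19.3 and 19.5 with OE, tight within each construct and above 4OHT (0.48, SE 0.07, and 0.56, SE 0.07).

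The members that fell are Gemin4 and Gemin7, both peripheral subunits of the SMN complex. Gemin7, which binds Gemin6 and Gemin8, was at 38.9, 35.8 and 30.6 CPM with 4OHT, 28, 26.3 and 25.5 with MU and 25.3, 24.7 and 27.2 with OE. Every construct library was below every 4OHT library (-0.40, SE 0.08, edgeR adjusted p = 0.000872, and -0.45, SE 0.08, adjusted p = 0.000377), and without the third 4OHT library the differences were larger (-0.50 and -0.54). Gemin4 was at 88.6, 82.4 and 94.2 CPM with 4OHT, 67.9, 72.2 and 62.2 with MU and 76.5, 75.7 and 70.8 with OE, also without overlap (-0.39, SE 0.07, edgeR adjusted p = 0.00015, and -0.25, SE 0.07, adjusted p = 0.00478). The value of Gemin4 is uncertain, since it shares 3353 exon bases with Glod4 on the same strand, at 34.7, 30.2 and 29.7 CPM with 4OHT, MU and OE, and 2875 with Fam57a on the opposite strand, at 9.33, 11.5 and 10.5 CPM. Gemin7 shares 263 exon bases with Zfp296 on the opposite strand, at 8.26, 7.61 and 6.77 CPM, and the sources used here do not state whether counting used the strand. Gemin4 lies at chr11:76210571-76217664 and Gemin7 at chr7:19564946-19577595, both on the minus strand of GRCm38.

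**Figure D3:**
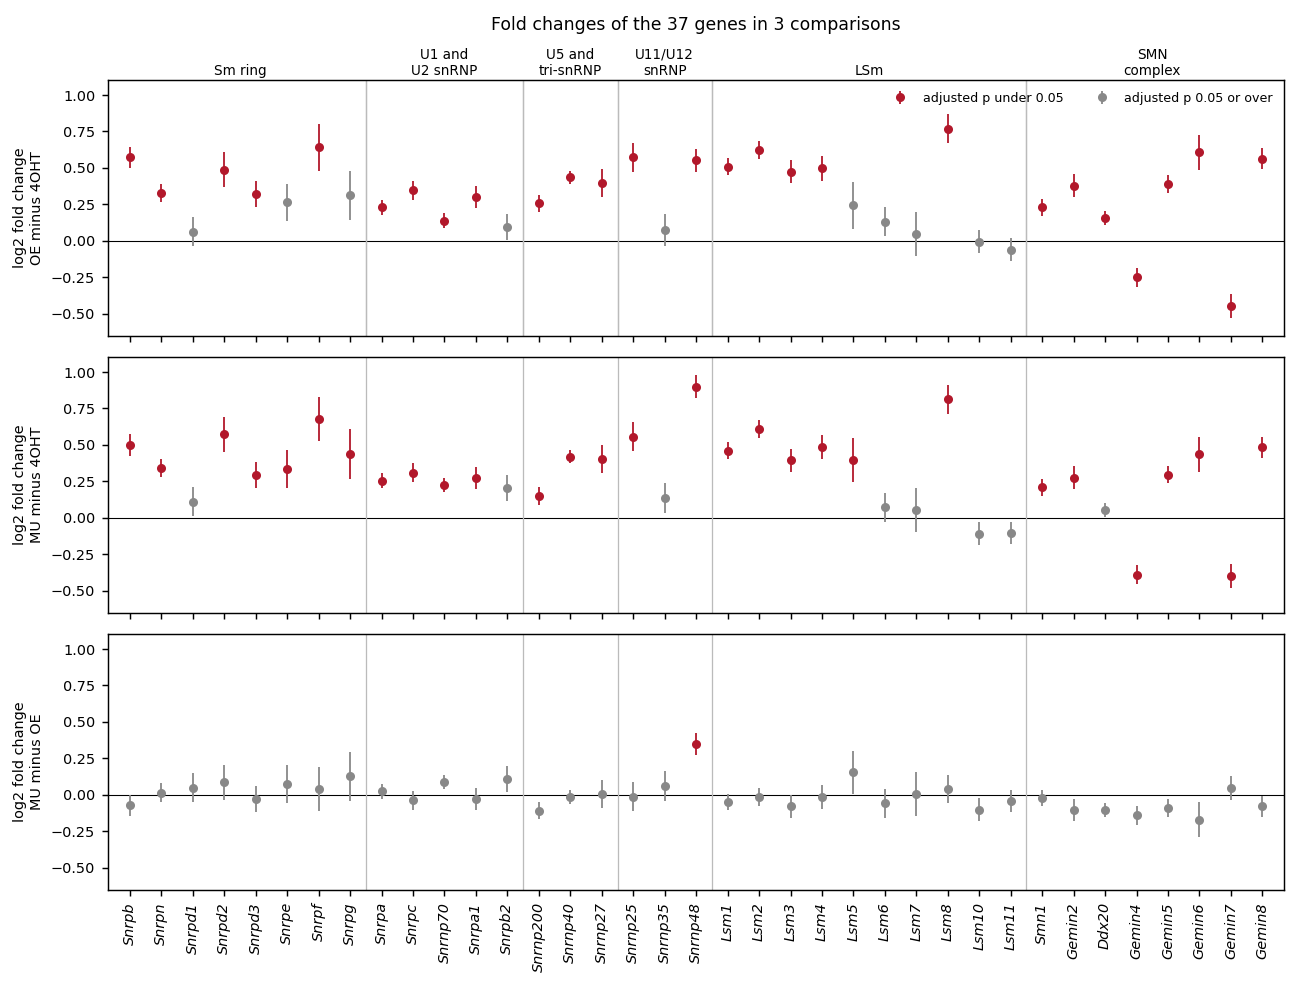
Log2 fold changes with SE (vertical lines) for the 37 genes by role group, in OE minus 4OHT (top), MU minus 4OHT (middle) and MU minus OE (bottom), red where the edgeR adjusted p was under 0.05. The upper panels share the 4OHT libraries and hold 25 and 27 red points above 0 and 2 each below, while the lowest panel holds Snrnp48 as its single red point.

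The comparison of MU with OE sets the catalytically dead PRMT5 construct against the active one. The groups also differed in Prmt5 RNA (146.1 against 1076 CPM) and in feeder and macrophage markers, and catalytic activity, the amount of the construct and the makeup of the RNA cannot be told apart here. Of 37 members, 1 was called higher and 0 lower, where 2.12% of all genes were called higher and 1.06% lower. At an unadjusted p under 0.05 there were 3 members, Snrnp48, Gemin4 and Ddx20, and DESeq2 called 1, Snrnp48. The median log2 fold change of the members was -0.01, against 0.01 for all genes tested, and 16 members were higher and 21 lower by sign. In 4 members all MU libraries were above all OE libraries and in 4 all were below, where 13.0% and 12.8% of all genes did so. None of the 8 Sm ring genes was called, and for Snrpb the 95% interval of MU minus OE was -0.23 to 0.09, for Snrpd3 -0.22 to 0.16, for Snrpd1 -0.17 to 0.27 and for Lsm4 -0.20 to 0.17. The widest interval in the ring was that of Snrpg, -0.24 to 0.49.

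Snrnp48 was the member called, with 66.9 ± 0.695 CPM in MU and 52.6 ± 2.66 CPM in OE (SD, n = 3). Every MU library was above every OE library, and the difference was 0.35 (SE 0.08, edgeR adjusted p = 0.0247), which is 1.27-fold. An exact two-sided permutation test over the 3 against 3 libraries gave p = 0.10, the smallest that this design allows. The call held without the third 4OHT library (0.35, adjusted p = 0.00121 by edgeR), and it was lost without the second 4OHT library or without any library of MU or OE, with adjusted p from 0.0528 to 0.159 and the difference between 0.31 and 0.38. No other U11/U12 gene listed was called between MU and OE, with intervals of -0.23 to 0.20 for Snrnp25 and -0.16 to 0.29 for Snrnp35 and none called of the 5 genes outside the members. Between MU and OE, 9 of 10 feeder fibroblast markers were called higher and 8 of 10 macrophage markers lower, and their part in the difference of Snrnp48 was not tested. Gemin6 (-0.17, SE 0.12), Gemin4 (-0.14, SE 0.07, unadjusted p = 0.0499) and Ddx20 (-0.10, SE 0.05, unadjusted p = 0.0471) were lower in MU and not called, as was Gemin2 (-0.10, SE 0.08).

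The partners of these proteins were compared in the same fit, by 8 lists of 59 genes in all beside Prmt5. Of these, 32 were called higher and 8 lower in MU against 4OHT, 35 higher and 8 lower in OE against 4OHT, and 0 in MU against OE, where 5 had an unadjusted p under 0.05. Without the third 4OHT library these counts were 32 and 8 in MU and 34 and 8 in OE against 4OHT. With all 9 libraries, 29.5% of all genes were called higher and 26.5% lower in MU against 4OHT. The shares were 29.9% and 27.9% in OE against 4OHT and 2.12% and 1.06% in MU against OE. They are the background for each list, the U11/U12 and U7 lists above included, and no list was tested against them. The list of Sm methylation and assembly partners has 7 genes with Prmt5, of which 3 were called higher and 1 lower in MU against 4OHT. In OE against 4OHT 4 were higher and 1 lower. Wdr77, the obligate subunit of the PRMT5 complex, was at means of 158.8, 251.9 and 242.6 CPM with 4OHT, MU and OE (0.67, SE 0.04, and 0.61, SE 0.04). Clns1a, which codes for pICln, was at means of 80.8, 78.6 and 77.9 CPM and was not called (-0.04 and -0.05). Strap, also in this list, was not called either (-0.02 and -0.03). Coprs, a PRMT5 cofactor on histones, rose with either construct (0.65, SE 0.08, and 0.66, SE 0.08). Riok1, an alternative adaptor of PRMT5, fell (-0.48, SE 0.06, and -0.65, SE 0.07).

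Of 7 genes for the cap, export and import of small nuclear RNAs and the Cajal body, 4 were called higher in MU against 4OHT and 6 in OE against 4OHT, including the cap-binding subunits Ncbp1 (0.49 and 0.51) and Ncbp2 (0.48 and 0.48). Of 13 tri-snRNP proteins outside the members, 8 were called higher and 1 lower with MU, and 9 and 1 with OE, with Prpf3 (0.74 and 0.78) and Ppih (0.58 and 0.59) changed most. The U2 SF3 proteins were mixed, with 3 of 10 higher and 2 lower with MU and 4 and 2 with OE, and Phf5a (0.44 and 0.45) and Sf3b3 (0.28 and 0.36) higher. Partners of the cytoplasmic LSm ring in messenger RNA decay were as mixed, with 3 of 8 higher and 2 lower in each, including Edc3 (0.53 and 0.58) and Patl1 (0.43 and 0.42), both higher. Of 4 LSm family genes outside the members, 3 were called higher with MU and 2 with OE, led by Lsm14b (0.79 and 0.83) and Lsm14a (0.38 and 0.43).

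Promoters of the members were read because most of them moved the same way. The RefSeq table of windows around the transcript start, each 300 bases long with most of it upstream (GRCm38.p6) held 32 of the 37. The motif CCGGAAG, the core bound by ETS factors, was found on either strand in the windows of 9 of these 32 genes, which is 28.1%, against 16.3% of 14095 tested genes with a window. They are Gemin8, Lsm5, Smn1, Snrnp200, Snrnp27, Snrpb2, Snrpc, Snrpe and Snrpg. CCAAT was found in 34.4% of the members and 42.4% of tested genes, CACGTG in 3.12% and 10.8%, and TATAAA in 9.38% and 9.96%, and none of these motifs is contained in another. The shares were not tested, and a match is not a binding site. The window of Snrnp27, on the minus strand at chr6:86684442-86684741, is shown as one that holds CCGGAAG. That of Snrnp48, on the plus strand at chr13:38204689-38204988, is shown as the promoter of the member called between MU and OE. The call of Snrnp48 was lost when any library of MU or OE was left out. Its window holds TATAAA near the far end. Motif matches are in capitals, and both are printed 5′ to 3′ in the direction of transcription.
Snrnp27: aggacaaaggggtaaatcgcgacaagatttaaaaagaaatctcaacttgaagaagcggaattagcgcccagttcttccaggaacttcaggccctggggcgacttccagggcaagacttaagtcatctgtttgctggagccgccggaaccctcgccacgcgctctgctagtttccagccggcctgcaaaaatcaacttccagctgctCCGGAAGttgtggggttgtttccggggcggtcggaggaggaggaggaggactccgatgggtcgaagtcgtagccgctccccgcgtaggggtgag
Snrnp48: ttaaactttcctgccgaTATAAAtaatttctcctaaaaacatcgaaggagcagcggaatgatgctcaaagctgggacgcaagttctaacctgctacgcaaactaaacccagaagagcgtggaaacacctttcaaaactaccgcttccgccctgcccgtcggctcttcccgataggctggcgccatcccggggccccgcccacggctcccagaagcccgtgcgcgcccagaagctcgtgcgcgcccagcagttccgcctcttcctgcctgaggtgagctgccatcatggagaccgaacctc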

How the data were processed

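Per the labels and the study's methods, reads (paired, 150 nt) were cleaned by the authors using Trimmomatic 0.39 and BBmap, mapped by HISAT2 2.2.1 (GRCm38) and summed per gene by StringTie 2.2.1. The deposited values are whole-number counts per gene, without normalization. How StringTie output became whole numbers, and whether strand was used, is not given in the sources used here, and a count of 4 was more frequent than 3 or 5 in every library, so that 1 read pair may stand for about 4 counts. In R 4.3.3, edgeR 4.0.16 was run with filterByExpr (minimum count 10, total 15), TMM and a quasi-likelihood fit with group over all 9 libraries, and p-values were adjusted by Benjamini-Hochberg over 22452 genes. The common biological coefficient of variation was 0.155. Scripts were tested on simulated data. Lengths, coding sequences and overlaps came from GENCODE vM21, which holds 53706 of the identifiers. Near-identical copies were searched with BLAST 2.17.0 (at least 95% over 150 bases). The protein table planned for counts of RG repeats was not used here, and codon pairs of the coding sequences took its place.

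The members and lists were chosen with earlier results of these data known. Every member was to be named, with all libraries shown for the ring genes, members called between MU and OE, and in other role groups the 2 most abundant genes and the gene with the largest change in each comparison. In the other lists, the 2 genes with the largest change in OE against 4OHT and any called between MU and OE were named. Gemin4, Gemin7 and Riok1 were shown in addition because they fell, and Wdr77 as the subunit of PRMT5. Clns1a and Strap were added as partners that were not called. Single values of Smn1, Lsm1, Lsm4, Lsm7, Lsm10 and Lsm11 were shown for their roles. Alternatives were DESeq2 1.42.0, other scalings, filters and samples. A count of 3 corresponds to 0.0082 to 0.0381 CPM, for counting error only. Replicates of a group differed by more than counting noise.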

Additional observations from a re-analysis of the deposited data

How the results depend on the processing

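Under 18 alternatives, 24 of the 29 members called in MU against 4OHT kept their call in each, all but Snrpd3, Snrpe, Snrpg, Snrnp200 and Lsm5, and 25 of the 27 called in OE against 4OHT, all but Snrnp70 and Ddx20. With a change of at least 1.5-fold also required, 4 were called higher and 0 lower in each comparison. Over all 22452 genes, that requirement left 3710 higher and 3672 lower in MU against 4OHT (32.9% called). In OE against 4OHT it left 3803 and 4115 (35.3% called). No called member changed sign in any of these alternatives. Calls gained in at least 1 alternative were Snrpb2, Snrnp35 and Ddx20 for MU and Snrpe, Snrpg, Lsm5 and Lsm7 for OE. In the comparison of MU with OE, where 1 member was called, the fit to the 6 MU and OE libraries called 2 (adding 1 lower, Snrnp200), the 1.5-fold requirement left 0, and leaving out 1 library gave 0 to 1. The members' median there, -0.01, was 0.009 with total counts, 0.024 without the filter on low counts and -0.061 with the length trend removed, and the cause was not tested. Over all genes, MU against OE gave 712 calls, and 1565 with 6 libraries, 1114 with DESeq2, 1099 without the third 4OHT library, 241 at 1.5-fold and 400 to 487 without a MU or OE library. Total counts moved the median of all genes in MU against 4OHT from 0.04 to 0.16, and upper-quartile scaling to 0.12. Same-numbered libraries did not deviate together (correlations between -0.09 and 0.04), and with the replicate number as a block 27 members were called higher and 2 lower in MU against 4OHT, 26 and 2 in OE against 4OHT and 1 in MU against OE.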
